A study of Mus musculus with 16 samples.

Results

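Myogenic regulators are the transcription factors that make a cell a muscle cell and keep its muscle genes on, and 8 of their genes were followed here in the quadriceps of aged mice with and without ATF4. The genes were Pax7, Myf5, Myod1, Myf6, Six4, Mef2a, Mef2c and Mef2d, and every probe that the array annotation gave these symbols was read, 12 probes in all among 25697 probes for 16593 named genes. Mef2a and Mef2c had 3 probes each and the other genes had 1. Quadriceps femoris RNA came from 16 male mice at 22 months of age, 8 ATF4 mKO mice and 8 littermate control mice, with 1 Illumina bead array per mouse. ATF4 mKO mice carried floxed alleles of Atf4 together with MCK-Cre, a transgene in which the muscle creatine kinase promoter drives Cre recombinase in skeletal muscle fibres and in heart. Littermate control mice carried the same floxed alleles without MCK-Cre. A control with Cre and intact Atf4 was not part of the comparison, and deletion in satellite cells is not what this promoter is known for. The comparison asked which mRNAs of old muscle depend on ATF4, the transcription factor at the end of the integrated stress response.

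Skeletal muscle fibres are long cells with many nuclei, and beneath their sheath lie satellite cells, the resident stem cells from which muscle is repaired. Pax7 marks the quiescent satellite cell, Myf5 and Myod1 commit its progeny to the muscle lineage, and Myf6, also called MRF4, is the myogenic factor that mature fibres keep using. Proteins of the MEF2 family bind beside the myogenic factors and turn on contractile, metabolic and calcium-handling genes, and they are held back by class IIa histone deacetylases and released by calcium signals through calcineurin and CaM kinases. Whole muscle is mostly fibre RNA, so a transcript restricted to satellite cells is diluted in such a sample. In whole muscle, fewer cells of a type and less RNA per cell cannot be told apart.

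The signals are log2 values with a floor. To place the floor, 1303 probes for odorant and vomeronasal receptors, which muscle is not known to use, were taken as a stand-in for probes without a target. Their median signal was 8.33, and the 95th percentile, 8.38, was used as the floor. Of all probes, 49.2% had a mean above it. Of the 12 myogenic probes, 9 lay above it, and these covered 6 of the 8 genes. The only probes of Pax7 and Myf5 and probe ILMN_1221253 of Mef2a lay at the floor. With the 99th percentile of the receptor probes as the floor, 8 probes remained above it, and with a fixed value of 8.5, 7 did. A change in a signal near the floor is compressed on the log2 scale. Brightness also depends on the probe, so the level of one gene was not set against that of another.

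**Figure D1:**
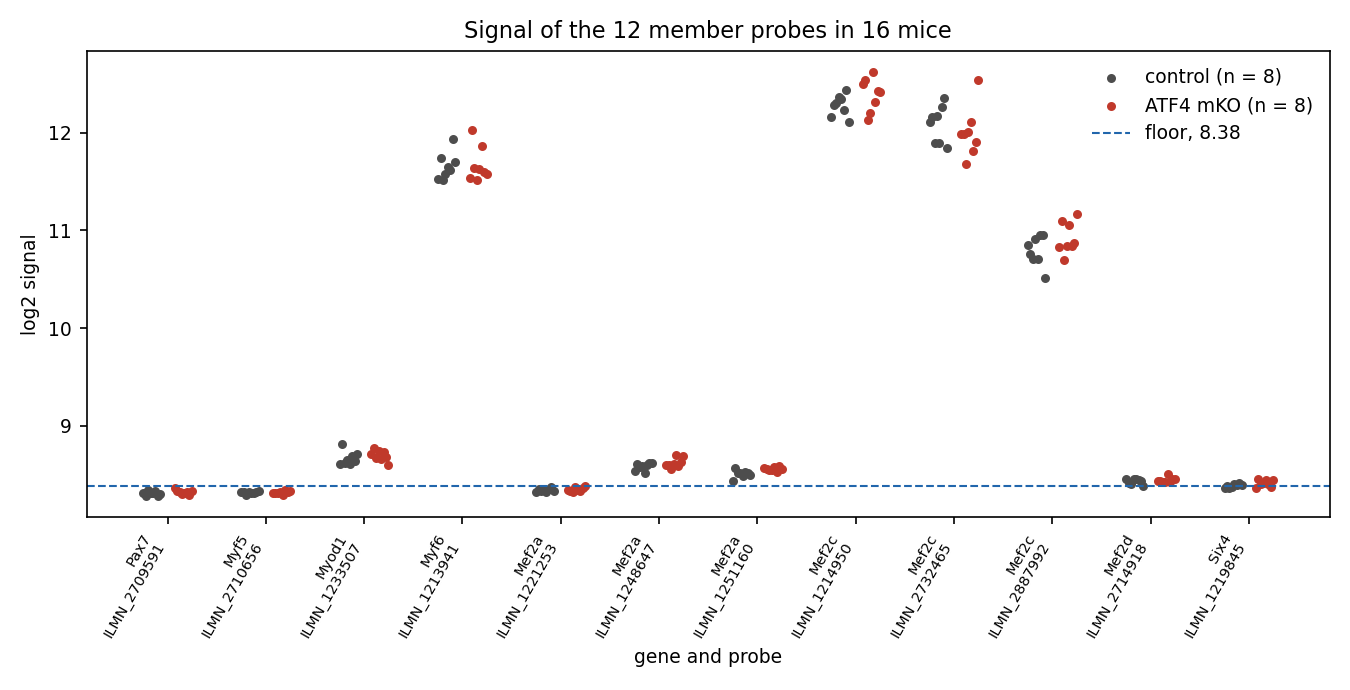
Log2 signal (y axis) of the 12 probes of the 8 genes in 8 control and 8 ATF4 mKO mice, 1 point per mouse. The dashed line is the floor of 8.38, and the probes of Mef2c and Myf6 stand far above it while those of Pax7 and Myf5 lie below it in both genotypes.

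Tissue and genotype were checked against markers. All 9 measured markers of muscle fibres lay above the floor, and 1 of 5 measured heart markers did (Myh6, 8.61 in control mice). The log2 of the summed fibre marker signal spanned 17.78 to 17.89 among controls and 17.77 to 17.91 among ATF4 mKO mice. Above the floor were also 7 of 8 markers of connective tissue cells, 7 of 8 of endothelium, 4 of 8 of leukocytes, 4 of 6 of adipocytes, 2 of 3 of Schwann cells and 4 of 5 of red blood cells, and no marker of any list was called. Atf4 itself fell from 10.45 ± 0.12 to 8.52 ± 0.053 (SD, n = 8), a difference in log2 signal of -1.93 ± 0.043 (S.E.; limma, adjusted *p* = 1.26e-13), with no overlap between genotypes. Called here means an adjusted *p* of 0.1 or less with limma over all probes, and 35 probes, 0.136% of those tested, were called.

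None of the 12 myogenic probes was called. The lowest adjusted *p* among them was 0.61 (limma). Without adjustment, 1 of the 12 had a limma *p* under 0.05, against 5.62% of all probes, and the same probe of Mef2a was the only one at 0.025 or less by the methods' t-test, against 2.85% of all probes. After adjustment the methods' t-test called 0. At 0 of the 12 probes were the genotypes free of overlap, against 0.101% of all probes. The mean was higher in ATF4 mKO mice at 11 of the 12 probes, against 51.5% of all probes, and the median difference of the 12 was 0.0212 in log2 signal, against 0.000467 over all probes. The 11 include the 3 probes at the floor, and the signs of Myf5 and Myf6 changed when some single arrays were left out. Probes of 1 gene, and probes read in the same mice, are not independent, so the count of 11 is given as a description. No 95% interval of the 12 reached beyond -0.31 or 0.29.

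**Figure D2:**
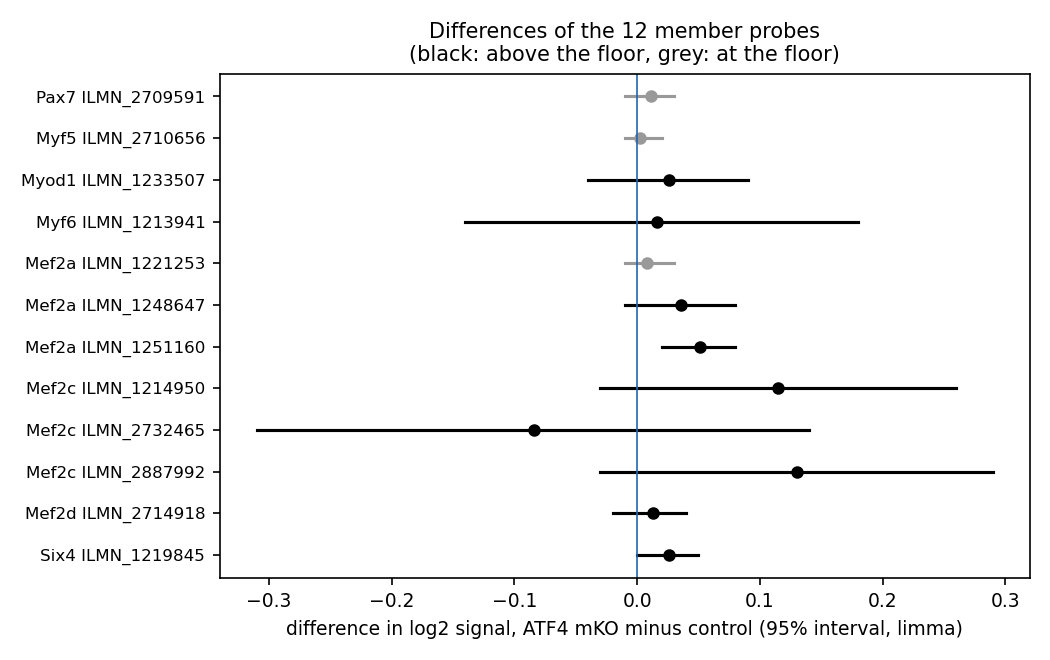
Difference in log2 signal between ATF4 mKO and control mice (x axis) for each of the 12 probes, as the limma estimate with its 95% interval, n = 8 per genotype. Black marks the 9 probes above the floor and grey the 3 at the floor, whose intervals are short. The interval of Mef2a ILMN_1251160 (0.02 to 0.08) was the only one of the 12 to leave out 0.

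Pax7, the paired-box factor of the satellite cell, gave signals from 8.28 to 8.35 in control mice (median 8.31) and from 8.29 to 8.36 in ATF4 mKO mice (median 8.32). Every one of these values lay below the floor, and in 13 of the 16 mice the signal was below the median of the receptor probes. Myf5, which is active early in satellite cell commitment, gave signals from 8.30 to 8.33 in control mice and from 8.29 to 8.35 in ATF4 mKO mice, with a median of 8.32 in both. Its signal was likewise below the receptor median in 13 of 16 mice. The limma differences of 0.01 for Pax7 and 0.00 for Myf5 have no reading as expression, because a fall in either mRNA could not have shown at such signals and a small rise would have been compressed. These arrays therefore do not measure the satellite cell pool through Pax7 or Myf5.

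Myod1, the myogenic determination factor, was dim but lay above the floor in all mice. Control signals ran from 8.61 to 8.81 with a median of 8.64, and ATF4 mKO signals from 8.59 to 8.77 with a median of 8.69. The genotypes overlapped almost throughout, and the brightest value of all belonged to control mouse 2. The difference in log2 signal was 0.03 ± 0.030 (S.E., 95% interval -0.04 to 0.09; limma, adjusted *p* = 0.959). Single mice moved it, to 0.05 without control mouse 2 (limma, unadjusted *p* = 0.0714) and to 0.02 without ATF4 mKO mouse 2. Measured as linear signal above the receptor median of the same array, Myod1 was 85.4 ± 19.7 without and 92.7 ± 15.8 with the deletion (SD, n = 8, exact permutation *p* = 0.424).

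Myf6 was bright in every mouse. Control signals ran from 11.51 to 11.94 with a median of 11.63, and ATF4 mKO signals from 11.51 to 12.03 with a median of 11.62. Most mice of both genotypes lay close together, and a few bright animals, control mouse 7 and ATF4 mKO mice 2 and 6, set the upper end. The difference was 0.02 ± 0.075 (95% interval -0.14 to 0.18; limma, adjusted *p* = 0.997), with 2 of 8 ATF4 mKO mice above the control mean. Its sign rested on single animals, being -0.03 without ATF4 mKO mouse 2 and 0.06 without control mouse 7. Because Myf6 was far from the floor, its interval is a bound on the log2 signal that the dim genes do not offer.

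Six4, a homeodomain factor that acts upstream of myogenic genes, lay just above the floor of 8.38 with a mean of 8.40 over all mice. Single mice of both genotypes lay below that floor. Control signals ran from 8.36 to 8.41 with a median of 8.39, and ATF4 mKO signals from 8.36 to 8.46 with a median of 8.41. Of the ATF4 mKO mice, 3 exceeded every control mouse, while the lowest of them, mouse 1, was as dim as the lowest control. The difference was 0.03 ± 0.014 (limma, unadjusted *p* = 0.0719, adjusted *p* = 0.894). On the linear scale above the receptor median, 13.1 ± 4.42 in controls stood against 19.2 ± 8.12 in the knockout (SD, exact permutation *p* = 0.0858), a gain of 46.6% on a very small base. With the 99th percentile of the receptor probes as the floor, Six4 counted as not above it.

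**Figure D3:**
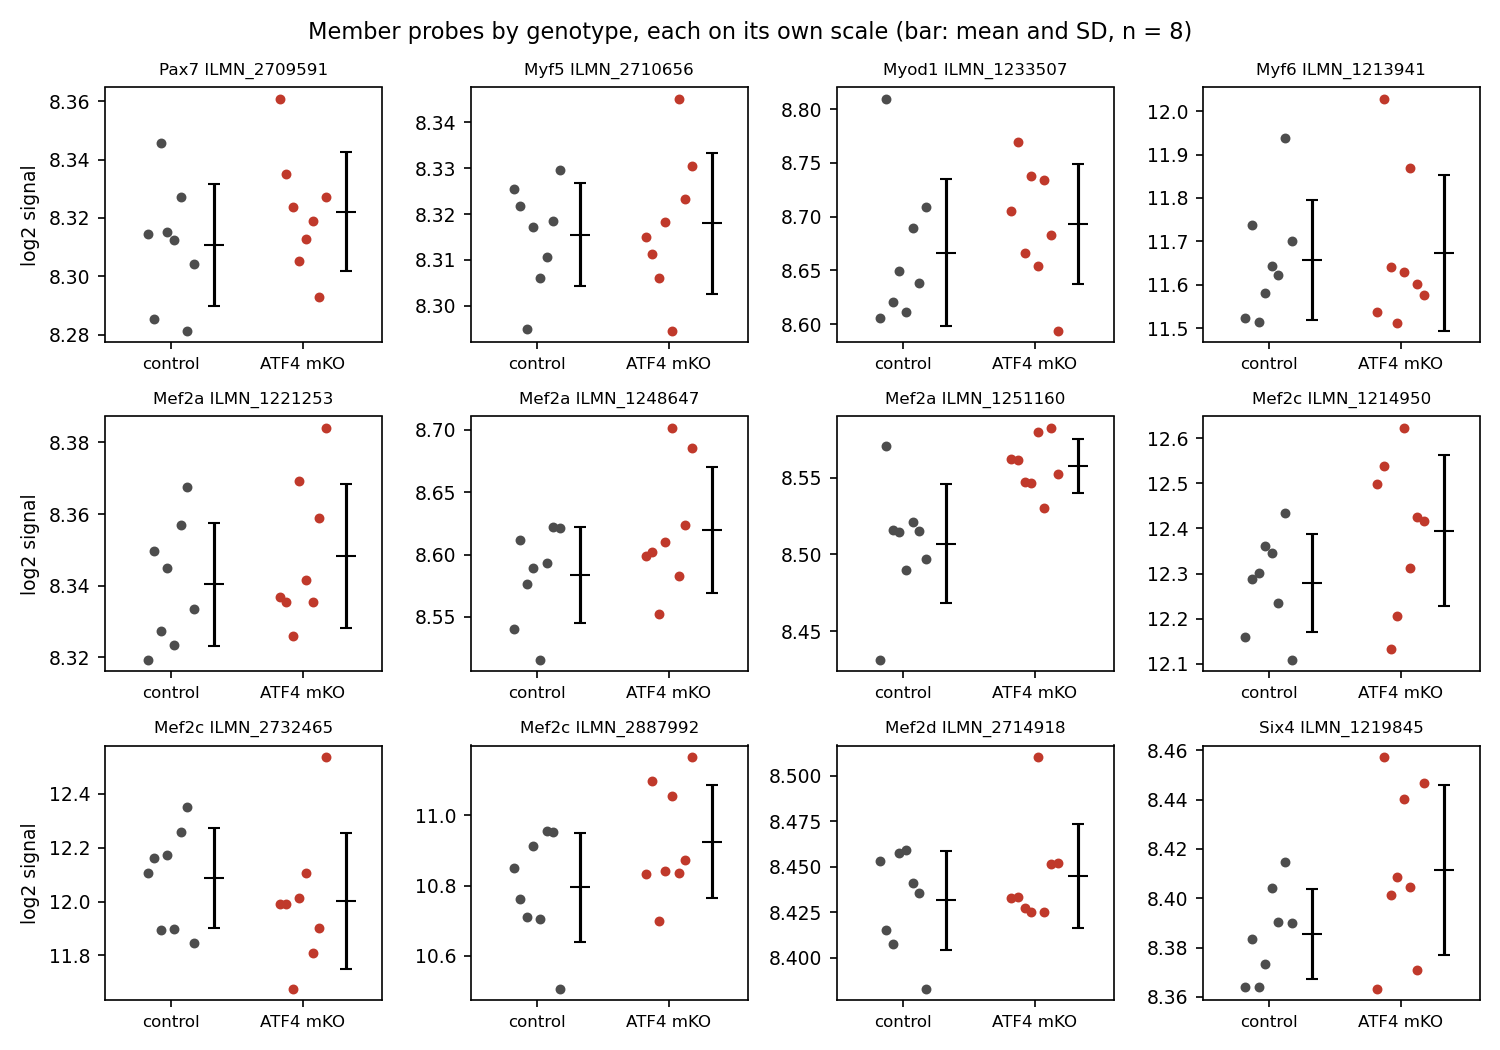
Log2 signal (y axis, a separate scale for each panel) of the 12 probes in control and ATF4 mKO mice, 1 point per mouse, with the mean and SD beside each group (n = 8). The genotypes overlap in every panel, and the least overlap is at Mef2a ILMN_1251160, where 7 of 8 control mice lie below the dimmest ATF4 mKO mouse.

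Mef2a was the gene with the lowest unadjusted *p*. At probe ILMN_1251160, control signals ran from 8.43 to 8.57 with a median of 8.51, and ATF4 mKO signals from 8.53 to 8.58 with a median of 8.56. All but 1 of the control mice lay below the dimmest ATF4 mKO mouse, and the exception, control mouse 2, lay among the brightest ATF4 mKO mice. The difference was 0.05 ± 0.015 (95% interval 0.02 to 0.08), with 8 of 8 ATF4 mKO mice above the control mean. It had an unadjusted limma *p* of 0.00327, an exact permutation *p* of 0.00311, and an adjusted *p* of 0.61 over all probes, so that it was not called. Leaving out any 1 array kept the difference between 0.04 and 0.06 and the adjusted *p* between 0.182 and 0.906 (limma). On the linear scale above the receptor median, the control mean was 42.6 ± 9.78 and the ATF4 mKO mean 55.5 ± 4.55 (SD, n = 8), or 30.3% higher. That base is small beside the receptor median itself, which averaged 321 in linear signal.

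The other Mef2a probe above the floor, ILMN_1248647, showed a smaller and less regular difference. Its control signals ran from 8.52 to 8.62 with a median of 8.59, and its ATF4 mKO signals from 8.55 to 8.70 with a median of 8.61. Mice 5 and 8 of the ATF4 mKO group stood above the rest, and the other 6 lay within the control range or at its upper edge. The difference was 0.04 ± 0.021 (95% interval -0.01 to 0.08; limma, adjusted *p* = 0.899; exact permutation *p* = 0.134). Between mice of 1 genotype the 2 probes correlated at *r* = 0.60 in control mice (exact *p* = 0.125, adjusted over 8 such relations 0.241) and at 0.52 in ATF4 mKO mice (exact *p* = 0.181, adjusted 0.241), and Spearman's rho was 0.48 and 0.55 (adjusted exact *p* = 0.324 and 0.315). Without the 2 mice farthest from the median, *r* was 0.05 and 0.62. The difference between genotypes was not distinguishable between these probes (limma on the probe difference, -0.02, 95% interval -0.06 to 0.03). The remaining probe, ILMN_1221253, lay at the floor in both genotypes (8.34 and 8.35).

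Because ATF4 acts by binding DNA, the promoters of the genes were read for short motifs. RefSeq start sites on GRCm38.p6 gave windows of 300 bases, 250 before the start and 50 after it, for 6 of the 8 genes, 9 windows in all, with none for Myod1 and Myf6. The letters TGATGNAA, a form of the element that ATF4 binds with a C/EBP partner, were in 0 of the 9 windows on either strand, against 3.97% of all 32851 windows. At that share a set of 9 windows usually holds none. Of the 9, 3 belong to Mef2c and 2, which overlap, to Six4. The cyclic AMP element TGACGTCA (1.79% of all windows) and the E-box CAGCTG, a motif of the myogenic factors (16.3%), were in none of the 9 either. For comparison, 18 genes were called lower in ATF4 mKO mice, a set picked from these same data, and 15 of them had windows, 19 in all. Of these windows 4, each of another gene, held TGATGNAA, and the sets were not tested against each other. The elements of 3 of these genes are shown with up to 10 bases on each side and the motif in capitals. Each lies on the strand opposite to the gene, and coordinates are those of GRCm38.p6.
Gars, chr6:55037961-55037988, minus strand: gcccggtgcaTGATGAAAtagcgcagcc
Herpud1, chr8:94386307-94386334, minus strand: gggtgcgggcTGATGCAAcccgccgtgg
Iars, chr13:49682127-49682154, minus strand: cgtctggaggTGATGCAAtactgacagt
A match is a description of letters and not a measured binding site, and a window without a match says only that the letters are not in it.

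Mef2a was the only one of the 6 genes with a MEF2 site by its usual consensus in its window, a motif found in 0.557% of all windows on either strand. The window is printed because Mef2a is the gene with the lowest *p*, and its MEF2 site is in capitals. It begins 2 bases before the annotated start.
Mef2a, chr7:67372809-67373108, minus strand: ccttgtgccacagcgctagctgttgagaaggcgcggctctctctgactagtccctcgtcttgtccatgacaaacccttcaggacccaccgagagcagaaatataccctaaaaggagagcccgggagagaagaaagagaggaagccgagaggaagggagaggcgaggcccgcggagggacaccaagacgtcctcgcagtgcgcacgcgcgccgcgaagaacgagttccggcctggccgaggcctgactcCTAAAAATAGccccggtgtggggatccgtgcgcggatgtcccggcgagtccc
No binding was measured in these mice, and nothing about the factor follows from the letters. The CArG box, the site of the related factor SRF, was in 0 of the 9 windows and in 1.63% of all windows. Of the 19 windows of the genes called lower, 2 held the CArG box, those of Herpud1 and Tceal8. The MEF2 site, TGACGTCA and CAGCTG were in 0 of those 19. These counts were not tested.

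Mef2c, the MEF2 member that mature fibres use to maintain sarcomere genes, was bright at all 3 of its probes. At ILMN_1214950, control signals ran from 12.11 to 12.43 (median 12.29) and ATF4 mKO signals from 12.13 to 12.62 (median 12.42), a difference of 0.12 ± 0.066 (95% interval -0.03 to 0.26; limma, adjusted *p* = 0.894). At ILMN_2887992, control signals ran from 10.51 to 10.96 (median 10.81) and ATF4 mKO signals from 10.70 to 11.16 (median 10.86), a difference of 0.13 ± 0.074 (95% interval -0.03 to 0.29; limma, adjusted *p* = 0.894). At both probes 3 ATF4 mKO mice were brighter than every control mouse, and the rest overlapped. ILMN_2732465 pointed the other way, with control signals from 11.85 to 12.35 (median 12.13) and ATF4 mKO signals from 11.68 to 12.54 (median 11.99), a difference of -0.08 ± 0.11 (95% interval -0.31 to 0.14; limma, adjusted *p* = 0.967). There 2 of 8 ATF4 mKO mice lay above the control mean, and mouse 8 was the brightest of all 16. Without that mouse the difference was -0.16 (limma, unadjusted *p* = 0.0693), and without ATF4 mKO mouse 3, the dimmest, it was -0.04.

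The Mef2c probes shared differences between mice to unequal degrees. ILMN_2732465 and ILMN_2887992 rose and fell together within a genotype, with *r* = 0.90 in control mice (exact *p* = 0.00243, adjusted over 8 relations 0.0194; rho = 0.93, adjusted exact *p* = 0.0179) and 0.83 in ATF4 mKO mice (exact *p* = 0.00521, adjusted 0.0208; rho = 0.67, adjusted exact *p* = 0.315). Without the 2 mice farthest from the median, *r* was 0.86 and 0.55, so that the relation in ATF4 mKO mice rested in part on mice 3 and 8. The 4 relations of ILMN_1214950 with the other Mef2c probes had *r* between 0.43 and 0.69 and adjusted exact *p* of 0.159 or more.

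Although they moved together, these probes were offset between genotypes. The log2 signal of ILMN_2732465 minus that of ILMN_2887992 averaged 1.29 ± 0.084 among controls (range 1.19 to 1.40) and 1.08 ± 0.15 among ATF4 mKO mice (SD, n = 8, range 0.89 to 1.37). Of the ATF4 mKO mice, 7 lay below the control range, and the other, mouse 8, lay near its top. The offset was -0.21 ± 0.056 (S.E., 95% interval -0.33 to -0.10, exact permutation *p* = 0.00482). This comparison was chosen after the values were seen, and for that reason all 4120 pairs of probes of a single gene above the floor, from 2273 genes, were fitted the same way. Without adjustment 5.7% of pairs had a *p* under 0.05 and after adjustment 0.0485% were called. This Mef2c pair had an adjusted *p* of 0.431 (limma, unadjusted 0.00128) and was not called. Without ATF4 mKO mouse 8 the offset was -0.26 and the adjusted *p* 0.0507, past the threshold, and without any other array it was not called. This pair had the lowest *p* of the Mef2c pairs. ILMN_1214950 minus ILMN_2732465 differed between genotypes by 0.20 (limma, unadjusted *p* = 0.0445, adjusted 0.847; exact permutation *p* = 0.0733). ILMN_1214950 minus ILMN_2887992 differed by -0.02 (limma, unadjusted *p* = 0.804). Which transcripts each probe detects was not analysed here.

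**Figure D4:**
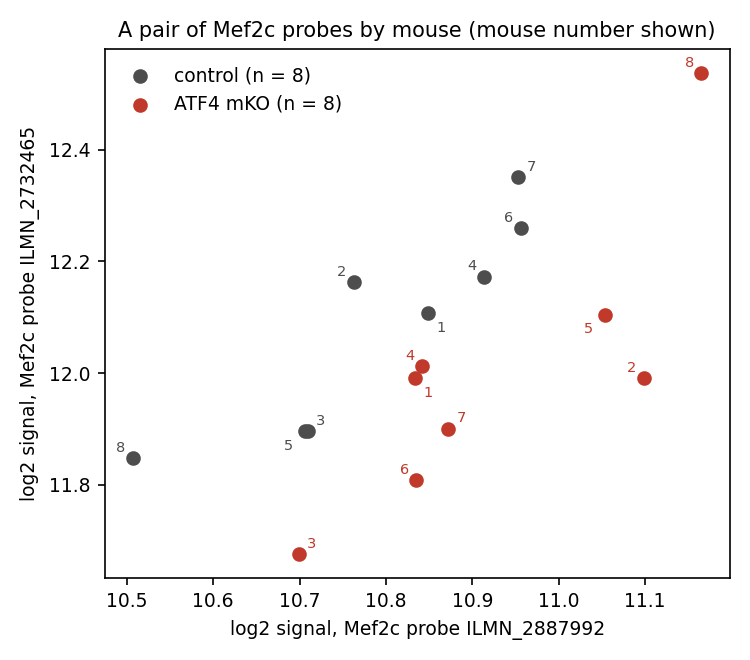
Log2 signal of Mef2c probe ILMN_2732465 (y axis) against that of Mef2c probe ILMN_2887992 (x axis), 1 point per mouse with its number, 8 control and 8 ATF4 mKO mice. Within each genotype the points rise together, and at a given x most ATF4 mKO mice lie lower than control mice, apart from ATF4 mKO mouse 8 at the upper right.

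Mef2d, a family member expressed in most tissues, lay a little above the floor. Control signals ran from 8.38 to 8.46 with a median of 8.44, and ATF4 mKO signals from 8.43 to 8.51 with a median of 8.43. The ATF4 mKO mice were tightly grouped except for mouse 5. The difference was 0.01 ± 0.014 (95% interval -0.02 to 0.04; limma, adjusted *p* = 0.954), and 0.0039 without that mouse.

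Between members, 30 relations were computed among the brightest probes of the 6 genes above the floor, within each genotype. After adjustment over the 30, 0 passed 0.05 by Pearson's *r* or by Spearman's rho, and the coefficients ran from -0.62 to 0.84. The lowest adjusted value belonged to Mef2a and Mef2d in ATF4 mKO mice (*r* = 0.83, exact *p* = 0.00181, adjusted 0.0543; rho = 0.81, adjusted exact *p* = 0.416), and *r* fell to 0.60 without mice 5 and 8. In control mice the same pair gave *r* = -0.62 (exact *p* = 0.103, adjusted 0.495). Myf6 and Six4 gave *r* = 0.84 in control mice (exact *p* = 0.00637, adjusted 0.0956) and 0.59 without mice 3 and 7.

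For each gene above the floor, the genes most like it across the 16 mice were taken after the mean of each genotype was subtracted, among 8829 genes above the floor. These coefficients are the highest among all those genes and are given as a description. Mef2a ILMN_1248647 had the closest companions. They were Nipa2 (*r* = 0.92, rho = 0.93), a magnesium transporter, Ppp3ca (*r* = 0.89, rho = 0.88), a catalytic subunit of calcineurin, and Skiv2l (*r* = 0.85, rho = 0.81). Six4 was most like Prkag2 (*r* = 0.88), a regulatory subunit of AMP-activated kinase, followed by Ccdc43 and Plaa (0.83 and 0.82). Mef2c ILMN_1214950 was most like Patl1 (0.82), then Dag1, which encodes dystroglycan, and BC005537 (both 0.79). The closest were Trpm4, Rilpl2 and Bmp5 for Myod1 (0.78, 0.75 and 0.74), Serf1, Emb and Dctd for Myf6 (0.77, 0.77 and 0.76), and Pcdhgb6, Elf2 and Hsd3b2 for Mef2d (0.78, 0.73 and 0.73). Some pooled coefficients came mostly from 1 genotype. In control and ATF4 mKO mice apart, *r* with Rilpl2 was 0.94 and 0.32, with Dctd 0.37 and 0.91, with Dag1 0.45 and 0.90, with BC005537 0.38 and 0.92, and with Plaa 0.53 and 0.96, whereas with Nipa2 it was 0.91 and 0.96, with Ppp3ca 0.84 and 0.92 and with Prkag2 0.89 in both. Whether these differ between genotypes was not tested. Several of the companions were themselves dim, and Mef2a, Ppp3ca and the other genes were read on the same arrays.

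Around the 8 genes, 5 lists of pathway genes were read by the brightest probe of each gene, 126 genes in all. None was called in either direction (limma), against 0.108% of all genes called lower and 0.0422% called higher. At an unadjusted *p* under 0.05, where 2.8% of all genes were lower and 2.96% higher, the counts were small and are given with each list.

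Satellite cell genes, 23 measured and 17 above the floor, had 2 lower and 1 higher at that unadjusted threshold, with a median difference of -0.00853 against 0.000467 over all genes. Itga7, the laminin receptor subunit alpha 7 integrin, had a control mean of 9.40 ± 0.078 and an ATF4 mKO mean of 9.30 ± 0.060 (SD), a difference of -0.10 ± 0.033 with 0 of 8 ATF4 mKO mice above the control mean (limma, adjusted *p* = 0.734). Cav1, the caveolae protein, differed by -0.18 ± 0.068 (adjusted *p* = 0.82, limma), and Notch3 by -0.04. Fgfr4, higher by 0.02, lay at the floor. Itga7 and Cav1 are also expressed outside satellite cells, so their values cannot be assigned to 1 cell type. All 8 measured endothelial markers had a mean that was not higher in ATF4 mKO mice (0 of 8, none called). The log2 of the summed endothelial signal spanned 12.27 to 12.54 among controls and 12.21 to 12.49 among ATF4 mKO mice, and its part in these values was not tested. Red blood cell markers, of which 0 of 5 had a higher mean in ATF4 mKO mice, had a median difference of -0.144 (Hba-a1 -0.44, Hbb-bt -0.28, Alas2 -0.14, none called), and the log2 of their summed signal spanned 13.1 to 14.57 among controls and 12.65 to 13.89 among ATF4 mKO mice. Their part in the satellite cell list was not tested either. Over all probes, 51.5% had a higher mean in ATF4 mKO mice. Markers read in the same mice are not independent, so the endothelial and red blood cell counts are given as a description.

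Regulators and cofactors of MEF2, 33 measured and 24 above the floor, had 1 lower and 3 higher at the unadjusted threshold, with a median difference of 0.00226. The 3 higher genes encode kinases and a phosphatase of muscle signalling. Camk2g, a CaM kinase subunit, had a control mean of 10.98 ± 0.081 and an ATF4 mKO mean of 11.10 ± 0.066 (SD), a difference of 0.11 ± 0.035 (limma, adjusted *p* = 0.672). Ppp3ca was 11.49 ± 0.097 and 11.64 ± 0.11, a difference of 0.15 ± 0.050 (limma, adjusted *p* = 0.751), and in both genes 8 of 8 ATF4 mKO mice lay above the control mean. Mapk12, the p38 gamma kinase, differed by 0.11 ± 0.040 in the same direction in 7 of 8 mice, and Hdac7, a class IIa deacetylase, by -0.03 ± 0.012. Their dimmer probes differed by less. Camk2g ILMN_3135323 differed by 0.08 (limma, unadjusted *p* = 0.00636, adjusted 0.695) and is not in the count above, which reads the brightest probe. Ppp3ca ILMN_2611431 differed by 0.09 (limma, unadjusted *p* = 0.188), and Ppp3ca ILMN_1227899 lay at the floor. Mapk12 ILMN_2697615 and ILMN_1248106 differed by 0.03 and 0.01 (limma, unadjusted *p* = 0.595 and 0.808). Other genes of these families, by their brightest probe, went in no shared direction. Ppp3cb differed by 0.01 and Ppp3r1 by 0.00, and the calcineurin regulators Rcan1 and Rcan2 by -0.09 each. Camk2b, Camk2d and Camk2a differed by -0.06, -0.04 and 0.03, and Camk4, at the floor, by 0.01. Among the class IIa deacetylases, Hdac4 differed by 0.07, Hdac5 by -0.10 and Hdac9, at the floor, by 0.00. None of these values passed the adjusted threshold.

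Targets of MEF2 and of the myogenic factors in fibres, 27 measured and all above the floor, had 0 genes past the unadjusted threshold in either direction and a median difference of -0.00914. Ckm, muscle creatine kinase, differed by 0.06 ± 0.028 and Eno3, muscle enolase, by 0.05 ± 0.024. Myoz2, a Z-disc protein of slow fibres, differed by -0.31 ± 0.17 and Ppargc1a, the coactivator PGC-1 alpha, by 0.14 ± 0.091. Larger differences came with larger spread between mice.

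Myogenic targets that respond to regeneration or denervation, 15 measured and 13 above the floor, had 0 past the unadjusted threshold and a median difference of -0.0189. The mean was higher in ATF4 mKO mice in 2 of 15, against 51.5% of all probes. Genes read in the same mice are not independent, so this count is given as a description. Cdkn1a, the cell cycle inhibitor p21, had a control mean of 9.77 ± 0.28 and an ATF4 mKO mean of 9.47 ± 0.42 (SD), a difference of -0.30 ± 0.17 (limma, adjusted *p* = 0.894), and its dimmer probes differed by -0.19 (ILMN_2846775, limma, unadjusted *p* = 0.109) and -0.11 (ILMN_2846776). The last of these had an unadjusted *p* of 0.026 (limma, adjusted 0.841) and is not in the count above, which reads the brightest probe. Myh8, the perinatal myosin, differed by -0.06, and the acetylcholine receptor subunits Chrnb1 and Chrnd by -0.11 and -0.01, the latter at the floor. Partners and upstream factors of the myogenic proteins, 28 measured and 22 above the floor, had 0 past the unadjusted threshold and a median difference of -0.00366. Dbp, a clock output factor, differed by 0.25 ± 0.16, Twist1, an inhibitor of the myogenic factors, by 0.06 ± 0.032, and Pitx3 and Sox6, the latter at the floor, by 0.02 each.

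**Figure D5:**
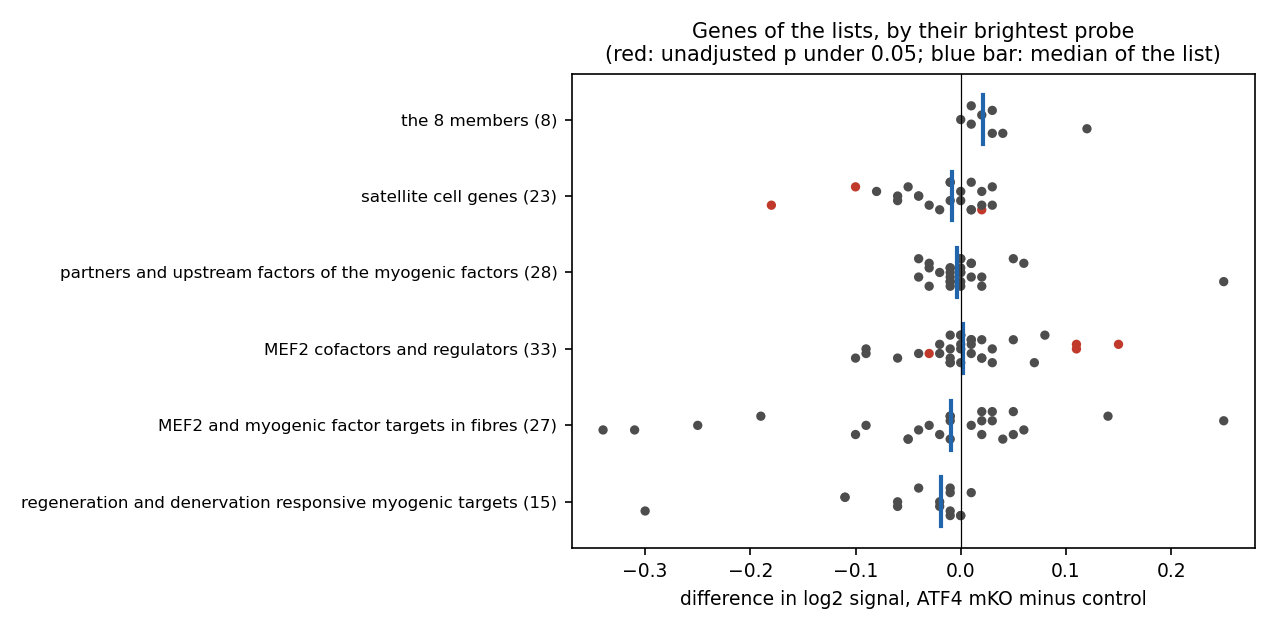
Difference in log2 signal between ATF4 mKO and control mice (x axis) of each measured gene by its brightest probe, for the 8 genes and the 5 lists (number measured in brackets), 8 mice per genotype. Red points have an unadjusted limma p under 0.05, blue bars are medians, and no point passed the adjusted threshold.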

How the data were processed

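Quadriceps RNA from 8 ATF4 mKO and 8 control mice was hybridised by the authors to version 2 of Illumina's mouse Ref-8 bead array, scanned with an iScan reader and analysed in BeadStudio. The authors deposited log2 signals per probe for each mouse. The sources used here do not state the background correction, the normalization or the slide of an array. Signals ran from 8.25 to 15.40. The annotation gave 1 symbol to 23978 of 25697 probes and none to 1719. The number of arrays limits the precision.

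ATF4 mKO minus control was estimated for each probe over 16 arrays by limma 3.58.1 under R 4.3.3 (lmFit, eBayes), with Benjamini-Hochberg adjustment over all probes. Single probes above the floor were compared by two-sided exact permutation tests over 12870 arrangements of the mice, and relations over 40320 pairings (Python 3.11.15, SciPy 1.17.1). Linear values are 2 to the power of the signal minus the median of the receptor probes of that array. Errors after a difference are S.E. of limma. The fit was tested on simulated data. The genes, lists and tests were chosen with earlier results of these data known. Named were all probes of the 8 genes, Atf4, up to 4 genes per list with the smallest unadjusted *p*, and the 3 genes most like each member above the floor. The comparison of probe pairs and the linear values were added after the data were seen. So were the genes named for their promoter element, for their family or as marker examples. Alternatives were quantile normalization, median centring, leaving out dim probes, a replicate block by mouse number, weights per array, another variance prior, the methods' t-test, other thresholds and floors, averaging the probes of each gene, each array left out, and leaving out control mice 3 and 7, which lay apart in earlier work on these data. Promoter sequences are from RefSeq (GRCm38.p6). The element of another gene is not reported here.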

Additional observations from a re-analysis of the deposited data

Results flagged for a closer look

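The Mef2d signal of ATF4 mKO mouse 5, 8.51, stood apart from the other 7 ATF4 mKO mice, the nearest of which was at 8.45. The gap made up 0.681 of the range of the group, above the critical value of 0.526 for 8 samples. Of 24 groups tested in this way, 1 was marked, and chance alone marks about 1 group in 20, or 1.2 of 24.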

How the results depend on the processing

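Of 336 alternative values, 323 were marked as unchanged. For a difference this means the same sign and the same side of the threshold. A count was also marked as unchanged when it moved only a little, as did the probes above the floor (9, against 7 and 8 with other floors). The count of myogenic probes called stayed at 0 under all alternatives run, the replicate block by mouse number included, and the count at an unadjusted *p* under 0.05 (1) ran from 1 to 4 when single arrays were left out, with 4 without ATF4 mKO mouse 3 and 2 when control mouse 7 or any of ATF4 mKO mice 1, 4 and 7 was left out. With the replicate block the Mef2a ILMN_1251160 difference was 0.05 (limma, adjusted *p* = 0.729). Same-numbered mice deviated together in no regular way (correlations from -0.226 to 0.24 over 12644 probes), so the numbers were not taken to pair the mice.

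Differences near 0 changed sign. Myf5 ran from -0.00137 to 0.00584 and Myf6 from -0.0342 to 0.0564 when single arrays were left out, and Myf5 was -0.000422 without control mice 3 and 7. Without single arrays, Mef2c ILMN_2732465 ran from -0.16 to -0.0373 and Myod1 from 0.0155 to 0.0468. The offset of the Mef2c probes ran from -0.256 to -0.188 and passed the threshold without ATF4 mKO mouse 8. The cause was not tested. The planned slide block was not run for want of slide positions. Signals at the floor limit what Pax7 and Myf5 can show, and a signal as close to it as that of Six4 is compressed.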
